A study of Homo sapiens with 16 samples.

Results

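HCC70 cells that carried a scrambled short hairpin RNA were compared with HCC70 cells that carried an empty vector, both of them controls in this study. The members are transcript clusters, the units of the array that stand for 1 gene each in most cases, in which all 4 scrambled arrays lay on the same side of both vector arrays. Of 16175 clusters tested, out of 33297 on the array, 4059 met this rule and are called separated. In 2798 of them (17.3% of those tested) the scrambled arrays were higher, and in 1261 (7.80%) they were lower. Exactly 1 gene symbol was annotated to 3218 of the 4059. The rule reads the same values as the comparison itself, so these counts describe the members and carry no test.

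The 4 scrambled arrays, labelled shCont, came in 2 sets that the titles call a and b, with 2 arrays each. The 2 vector arrays are labelled plKO Puro. All 6 came from HCC70, an established basal-like human breast cancer line, and all cells had been infected with viral supernatant with 6 µg/ml polybrene and put under 1 µg/ml puromycin from 48 h after infection. They were seeded at equal confluence 24 h before RNA was extracted. A further 3 HCC70 groups of 2 arrays gave values outside the rule: hairpins against EZH2 (shEZH2), hairpins against EED (shEED) and an EZH2 cDNA (fip EZH2). The other 4 of the 16 arrays came from MDA-MB-468 cells. They added to the estimate of spread and counted in the choice of clusters to test. The labels do not say whether arrays of a set were separate cultures or infections, so p-values measure the spread between these samples, which may be technical.

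A short hairpin RNA is transcribed from an integrated virus, exported from the nucleus by exportin 5, cut by Dicer and loaded onto an Argonaute protein, which then acts on transcripts that match the guide strand. A scrambled hairpin passes through the same steps with a sequence chosen to match no intended target, whereas an empty vector brings the virus and the resistance gene but no hairpin. Double-stranded RNA can also be read by sensors such as RIG-I, MDA5 and PKR, which switch on interferon response genes.

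The labels of the shEZH2 and EZH2 cDNA arrays were first checked on EZH2, the catalytic subunit of Polycomb repressive complex 2. Neither control targets EZH2, so its level cannot check which arrays are scrambled and which are vector. EZH2 read 10.01 and 10.00 in set a, 10.08 and 10.06 in set b, and 9.94 and 9.94 in the vector arrays, on the log2 scale of the deposited signals that all levels below share. It read 8.50 and 8.58 in the shEZH2 arrays and 10.20 and 10.27 in the EZH2 cDNA arrays. The EZH2 cDNA minus vector difference was only 0.29 and was not called. The scrambled minus vector difference was 0.10 ± 0.10 (SE), with an adjusted p of 0.898 by limma. EZH2 met the rule as higher in scrambled arrays, with the nearest arrays 0.057 apart. The epithelial genes EPCAM, CDH1, KRT5 and KRT19 read between 10.86 and 13.14 on all 6 arrays. The hormone receptor genes ESR1 and PGR stayed below log2 6, the floor under which a signal was not taken as shown to be above background. Of 9 markers of other cell types, 7 were below that floor on all 6 arrays, PTPRC, CD3E and PECAM1 among them. CD14 (10.44 to 10.80 in scrambled arrays, 10.47 and 10.57 in vector arrays) and COL1A1 (6.93 to 7.27 in scrambled arrays, 7.21 and 7.04 in vector arrays) were above it and were not separated.

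Set a differed from set b about as much as from the vector arrays, whereas set b lay nearer to the vector arrays than to set a. Over all tested clusters, set a arrays correlated with vector arrays at r = 0.9739 to 0.9778 and with set b arrays at 0.9770 to 0.9795. Set b arrays correlated with vector arrays at 0.9881 to 0.9911. Arrays of the same set correlated at 0.9951 in set a, 0.9969 in set b and 0.9877 in the vector pair, which was the loosest of these 3. The median size of the set a minus vector difference was 0.191, that of set b minus vector 0.117, and that of set a minus set b 0.194. The spread between sets was therefore kept in the error of the main test, and values are given for each set. What sets a and b stand for was not found in the labels.

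At an adjusted p under 0.05 by limma, with each pair of arrays as a random block, 11 clusters passed (0.0680% of those tested), and 1174 had an unadjusted p under 0.05. The 7 rises (0.0433%) included the adhesion adaptor LPXN, the retinaldehyde dehydrogenase ALDH1A1, the matrix protease MMP7 and the heparan sulfate proteoglycan GPC4. The 4 falls (0.0247%) included the aminopeptidase ANPEP, the mitophagy receptor BNIP3 and the membrane protein TMEM45A. All 11 were separated. With a larger correlation within pairs, chosen after seeing the data, 0 clusters passed (lowest adjusted p = 0.351, 361 at an unadjusted p under 0.05), and with only the 6 arrays in the fit 0 passed (610 at an unadjusted p under 0.05). For a single gene an exact permutation of 4 against 2 arrays can give no two-sided p under 0.0667.

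Fits without 1 array keep the correlation of the main test, which was estimated too low on simulated data, so they share that limit. With the larger correlation the adjusted p of LPXN by limma was 0.351, and with only the 6 arrays in the fit 0.387. Leaving out 1 array moved the count of 11. It was 6 with replicate 1 of set a left out and 1 with replicate 2 of that set left out. For set b these counts were 9 and 3, and for the vector arrays 2 and 3. LPXN was called in all 6 of these fits, ALDH1A1 in 4, GPC4 and ANPEP in 3, MMP7 and NSMAF in 1, and BNIP3 and TMEM45A in 0.

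Among the rises, LPXN, which encodes leupaxin, a paxillin family protein of adhesion sites, read 8.08 and 8.26 in set a and 8.19 and 8.18 in set b, against 6.87 and 7.01 in the vector arrays. Every scrambled array was more than 1 log2 unit above the higher vector array, and the sets lay together. The difference was 1.24 ± 0.13 (SE), 2.36-fold, with an adjusted p of 0.00684. ALDH1A1, which makes retinoic acid from retinaldehyde and is widely used as a marker of progenitor-like breast cells, read 10.12 and 10.08 in set a and 10.02 and 10.01 in set b, against 9.09 and 9.22 in the vector arrays. Its 4 scrambled values spanned little beside the step to the vector arrays. The difference was 0.90 ± 0.11, 1.87-fold, with an adjusted p of 0.0155.

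MMP7, matrilysin, is a secreted protease that epithelial cells make themselves. It read 9.39 and 9.57 in set a and 9.06 and 9.10 in set b, against 7.89 and 8.05 in the vector arrays. Set a was the higher of the sets, and both were clear of the vector arrays. The difference was 1.31 ± 0.20, 2.49-fold, with an adjusted p of 0.0357. GPC4, a glypican that holds growth factors at the cell surface, read 6.24 and 6.38 in set a and 6.60 and 6.45 in set b, against 5.13 and 5.43 in the vector arrays, which were below the floor. The fitted difference of 1.14 ± 0.16 (adjusted p = 0.0288) may therefore be understated.

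NSMAF, an adaptor of the tumour necrosis factor receptor that links it to neutral sphingomyelinase, read 6.90 and 6.79 in set a and 6.71 and 6.90 in set b, against 5.99 and 6.00 in the vector arrays. The difference was 0.83 ± 0.13, with an adjusted p of 0.0411. The neuropeptide Y receptor gene NPY1R (1.19, adjusted p = 0.0275) and UPRT (0.79, adjusted p = 0.035) passed as well. Both were below the floor on every HCC70 array and were tested only through the MDA-MB-468 arrays, so their sizes are uncertain.

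Among the falls, ANPEP, the cell surface aminopeptidase CD13, read 8.68 and 8.73 in set a and 9.01 and 9.00 in set b, against 10.04 and 9.98 in the vector arrays. The difference was -1.16 ± 0.15, 2.23-fold lower, with an adjusted p of 0.0191. TMEM45A read 9.13 and 9.12 in set a and 8.92 and 8.90 in set b, against 9.72 and 9.90 in the vector arrays. It fell by 0.79 ± 0.12, with an adjusted p of 0.0411. Of these genes ANPEP was lower in set a than in set b, and TMEM45A was lower in set b.

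BNIP3, a hypoxia-induced receptor that marks mitochondria for autophagy, read 6.58 and 6.49 in set a and 6.76 and 6.74 in set b, against 7.38 and 7.53 in the vector arrays. It fell by 0.81 ± 0.13, with an adjusted p of 0.0411. A cluster without a gene symbol (8155083) read 8.30 and 8.08 in set a and 7.99 and 7.92 in set b, against 9.27 and 9.32 in the vector arrays. It fell by 1.22 ± 0.17, with an adjusted p of 0.0275.

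**Figure D1:**
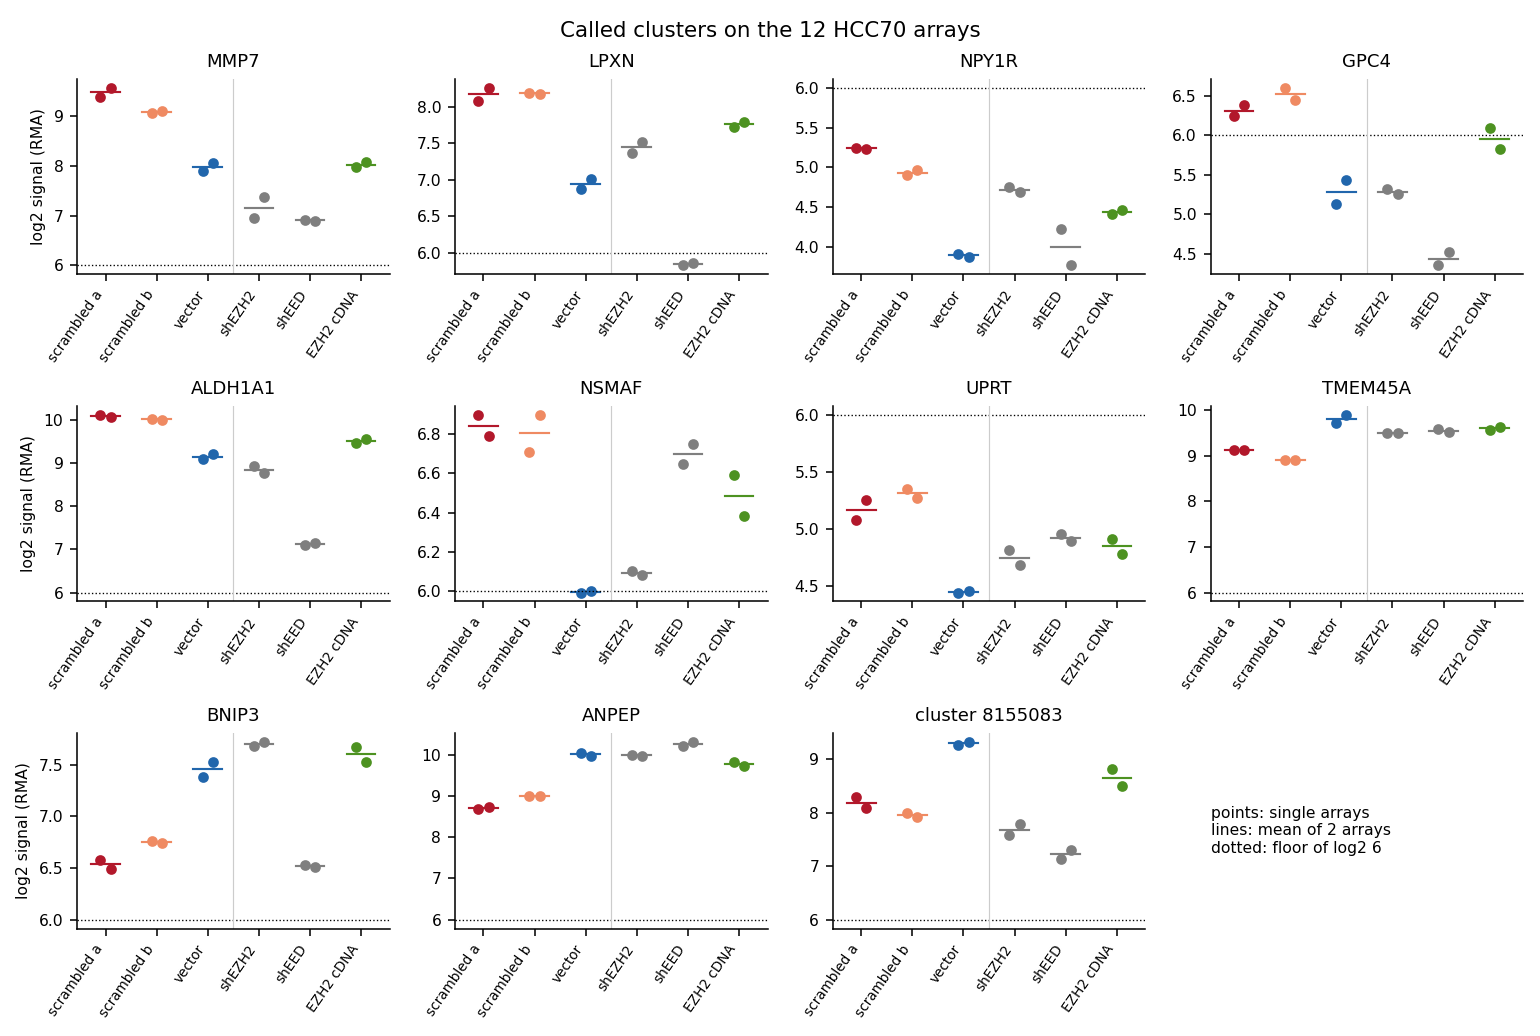
Log2 signals (vertical axes) of the 11 called clusters on the 12 HCC70 arrays by group (horizontal axes), with points for arrays, lines for means of 2 arrays and a dotted line at the floor of log2 6. In each panel the 4 scrambled arrays lie on the same side of both vector arrays, and the vertical axes are scaled to each panel and do not start at 0.

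The other HCC70 arrays, which the rule did not use, were set beside these levels. For 8 of the 11 called clusters all 6 of them lay beyond the scrambled range on the vector side. The same count was not made over all tested clusters, and clusters chosen for scrambled values apart from the vector can show this through the choice alone. The 8 of 11 is therefore a description. ANPEP read 10.00 and 9.98 in shEZH2 arrays, 10.21 and 10.31 in shEED arrays and 9.83 and 9.72 in EZH2 cDNA arrays, near the vector arrays and above every scrambled array. TMEM45A read 9.51 and 9.50 in shEZH2 arrays, 9.59 and 9.52 in shEED arrays and 9.57 and 9.64 in EZH2 cDNA arrays. For these genes the arrays with another hairpin thus lay nearer to the vector arrays than to the scrambled ones.

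LPXN read 5.83 and 5.86 in the shEED arrays, below both controls, 7.37 and 7.52 in shEZH2 arrays and 7.73 and 7.79 in EZH2 cDNA arrays, between the scrambled and the vector values. ALDH1A1 read 7.11 and 7.15 in shEED arrays, 8.93 and 8.77 in shEZH2 arrays and 9.46 and 9.55 in EZH2 cDNA arrays. BNIP3 was one of 2 named exceptions, since the shEED arrays (6.53 and 6.51) lay within the scrambled range while the shEZH2 arrays (7.68 and 7.72) lay above the vector arrays. NSMAF was the other, with 1 shEED array at 6.75 inside the scrambled range. In the unnamed cluster 8155083 the shEZH2 arrays (7.58 and 7.78) and shEED arrays (7.14 and 7.30) lay below all scrambled arrays.

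A comparison that shares no array with the one above set the 4 knockdown arrays, which carry a hairpin, against the 2 EZH2 cDNA arrays, which do not. EZH2 and EED levels differ between these groups too, so hairpin and target level cannot be told apart. By the same limma fit 74 clusters were higher (0.457%) and 198 lower (1.22%) in knockdown arrays. Of the 7 rises in scrambled arrays, 4 were among the falls here: LPXN at -1.11 ± 0.13 (adjusted p = 0.00116), ALDH1A1 at -1.51 ± 0.11 (2.44e-05), GPC4 at -1.10 ± 0.16 (0.00508) and MMP7 at -0.99 ± 0.20 (0.0262). Their sign was the opposite of that between scrambled and vector arrays. The shEZH2 and shEED groups were fitted apart and averaged, so the difference between them does not enter these errors or calls. LPXN averaged 7.45 in shEZH2, 5.85 in shEED and 7.76 in EZH2 cDNA arrays, and ALDH1A1 8.85, 7.13 and 9.50. For MMP7 the knockdowns lay closer together, at 7.16 and 6.91 against 8.02. The means of GPC4 here were all below the floor (5.28 in shEZH2, 4.43 in shEED and 5.95 in EZH2 cDNA arrays), so its size is uncertain. The unnamed cluster 8155083 fell here as well, by 1.20 ± 0.17 (adjusted p = 0.00323), with the same sign in both comparisons. The differences of BNIP3 (-0.49, adjusted p = 0.0855), ANPEP (0.35, 0.32), TMEM45A (-0.08, 0.876) and NSMAF (-0.09, 0.852) did not pass.

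Over all members the calls between knockdown and cDNA arrays were counted on each side. Of the 2798 clusters higher in scrambled arrays, 18 (0.643%) were called higher in knockdown arrays and 60 (2.14%) lower. Of the 1261 lower in scrambled arrays, 8 (0.634%) were called higher and 27 (2.14%) lower. The shares of all tested clusters were 0.457% higher and 1.22% lower, so members of both sides lay above them in both directions. By separation alone, the 4 knockdown arrays lay above both cDNA arrays in 24.0% of the clusters higher in scrambled arrays and in 12.6% of those lower, beside 17.6% of all tested clusters. They lay below both cDNA arrays in 10.5% of the clusters higher in scrambled arrays and in 17.7% of those lower, beside 12.8% of all tested clusters.

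**Figure D2:**
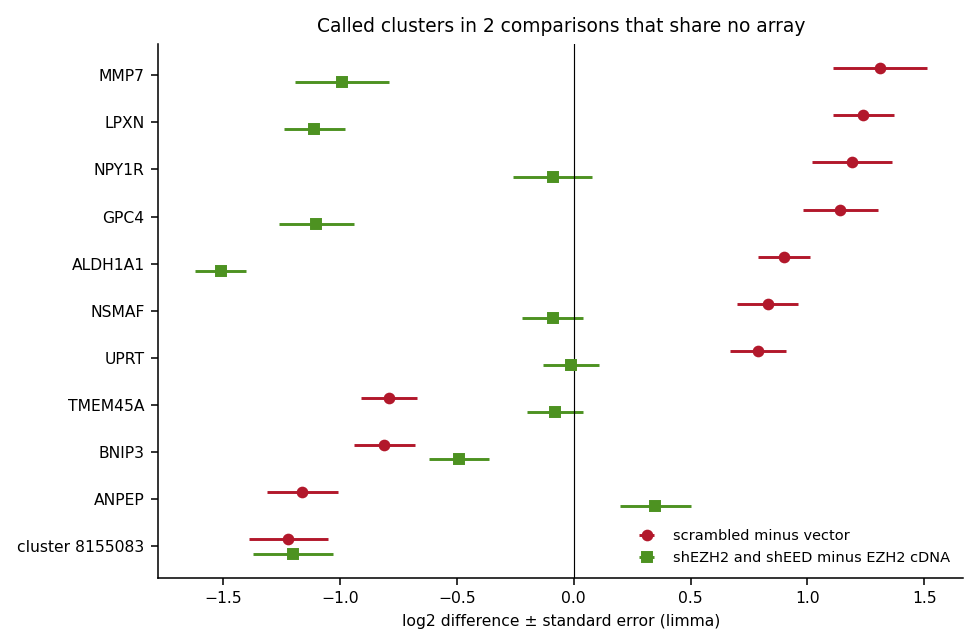
Log2 difference ± standard error (horizontal axis) of the 11 called clusters (vertical axis) for scrambled minus vector arrays (circles) and for shEZH2 and shEED minus EZH2 cDNA arrays (squares), both from the same limma fit. LPXN, ALDH1A1, GPC4 and MMP7 lie on opposite sides of 0 in the 2 comparisons, and cluster 8155083 lies below 0 in both. The errors of the squares leave out the difference between shEZH2 and shEED arrays.

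Most separated clusters differed by little. The median difference was 0.260 among those higher and -0.267 among those lower in scrambled arrays, and 22 and 16 of them reached 2-fold. The nearest scrambled and vector arrays lay 0.082 apart at the median in the clusters that were higher and 0.062 in those that were lower. The share of separated clusters that were higher was 68.9% on the deposited values, 71.2% after median centring (2617 higher and 1059 lower) and 55.2% after quantile normalization (2200 higher and 1787 lower), so the excess of higher clusters depends in part on the scaling. At the edge of the rule stood EPC2, whose nearest scrambled and vector arrays both read 7.7573 with the scrambled one lower in a later decimal, and just outside it RGL3, whose nearest arrays both read 5.4916.

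Set a differed from the vector arrays by more than set b in 71.6% of the clusters that were higher and 76.8% of those that were lower, beside 66.1% of all tested clusters. With the spread within pairs as the only error, set a alone gave 4022 clusters that differed from the vector arrays (24.9%), 1947 of them higher and 2075 lower, and set b alone gave 307 (1.90%), 225 higher and 82 lower. Both comparisons use the same 2 vector arrays. The mean of the sets by the same fit gave 1054 higher (6.52%) and 706 lower (4.36%), of which 927 and 439 were separated, but that error leaves out the difference between the sets.

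Some genes with a large step in 1 set did not meet the rule, because the other set lay among the vector arrays or on their other side. The cytokine gene LIF read 5.19 and 4.95 in set a and 7.85 and 7.71 in set b, against 7.51 and 7.66 in the vector arrays. The matrix glycoprotein gene THBS1 read 9.07 and 9.00 in set a and 11.74 and 11.78 in set b, against 11.45 and 11.53 in the vector arrays. EDN1, FN1 and VIM had the same layout, with set a minus vector differences of -2.24, -1.94 and -1.39 and set b minus vector differences of 0.24, -0.05 and 0.02. The serpin gene SERPINB7 lay the other way, at 7.90 and 8.17 in set a and 5.63 and 5.70 in set b, against 5.78 and 6.09 in the vector arrays. The keratin gene KRT75 had its step in set b, at 5.84 and 5.71 in set a and 7.69 and 7.72 in set b, against 5.51 and 5.83 in the vector arrays. Of these genes VIM was on the fixed panel, and the other 6 were named after their values were seen. A large step in set a beside a small one in set b did meet the rule where both lay on the same side, as in SLC7A11, a cystine transporter gene (-0.99 in set a and -0.08 in set b), and FADS2, a fatty acid desaturase gene (-0.94 and -0.06).

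**Figure D3:**
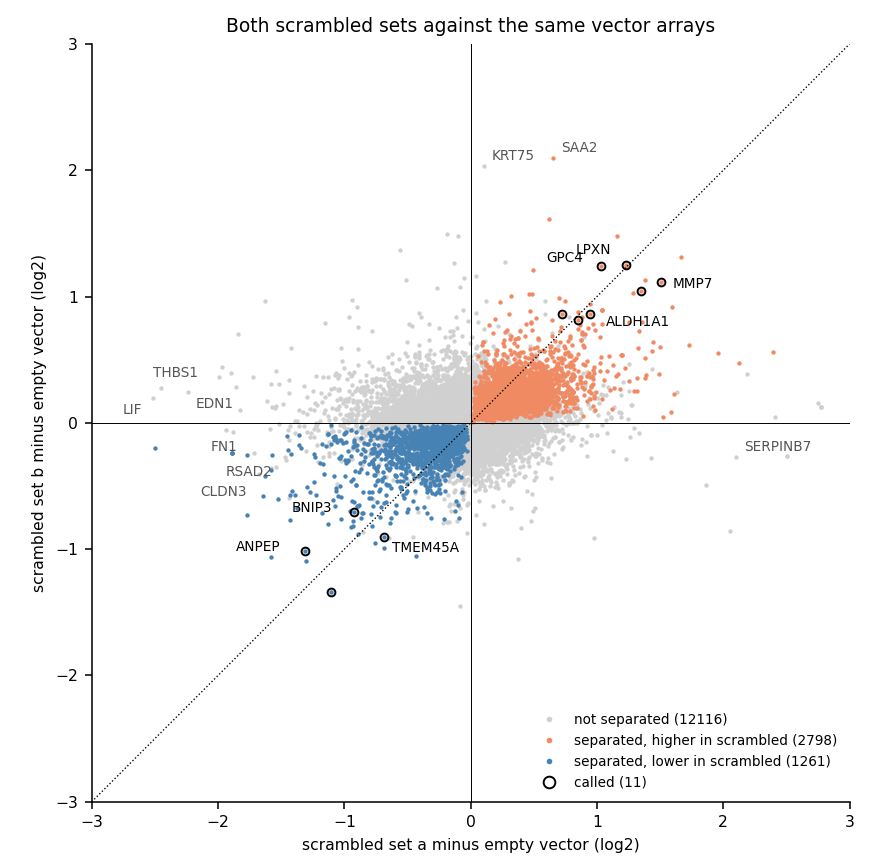
Each point is 1 of 16175 tested clusters, with its scrambled set a minus vector difference (horizontal axis, log2) and its scrambled set b minus vector difference (vertical axis, log2), and circles mark the 11 called clusters. Both axes subtract the same 2 vector arrays, so a slope between them is built in. The called clusters lie near the dotted line of equal differences, and LIF, THBS1, EDN1 and FN1 lie far to the left near 0 on the vertical axis.

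The widest gaps between the groups were read off after the values were seen and included genes that did not pass the test. KYNU, an enzyme of tryptophan breakdown, read 5.55 and 5.57 in set a and 5.56 and 5.57 in set b, against 4.26 and 4.40 in the vector arrays. It was below the floor on every HCC70 array and was tested only through the MDA-MB-468 arrays. SV2C, a synaptic vesicle glycoprotein gene, read 7.45 and 7.30 in set a and 7.18 and 7.08 in set b, against 6.00 and 5.99 in the vector arrays, with an adjusted p of 0.0508. The kallikrein gene KLK10 read 9.05 and 9.02 in set a and 8.42 and 8.31 in set b, against 7.51 and 7.38 in the vector arrays (adjusted p = 0.0509). The nearest arrays lay 1.155 apart in KYNU, 1.072 in SV2C and 0.797 in KLK10.

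SERPINB4, a serpin with a gap of 0.849 (1.15, adjusted p = 0.136), lay between SV2C and KLK10 in this order, and the core fucosyltransferase FUT8 (0.86, 0.0587) and the heparan sulfate sulfotransferase HS6ST2 (0.80, 0.173) followed on the higher side. On the lower side, PTGS1, cyclooxygenase 1, read 7.29 and 7.22 in set a and 7.19 and 7.24 in set b, against 7.96 and 7.98 in the vector arrays (adjusted p = 0.205). TMLHE, the first enzyme of carnitine synthesis, read 6.75 and 6.39 in set a and 6.63 and 6.53 in set b, against 7.34 and 7.57 in the vector arrays (adjusted p = 0.0857). MUC15, a membrane mucin, and DCLK1, a microtubule-associated kinase, differed by -1.32 (adjusted p = 0.133) and -1.25 (0.288), and DCLK1 by more in set a (-1.77) than in set b (-0.73).

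Gene lists were read for their counts against the shares of all tested clusters, which were 17.3% separated higher and 7.80% separated lower, with a median difference of 0.023 (0.020 for set a and 0.045 for set b). Lists were chosen with earlier results of these data known. Of 479 tested clusters in the 24 lists, MMP7 and BNIP3 were called by limma, and 55 (11.5%) had an unadjusted p under 0.05, beside 7.26% of all tested clusters.

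The list of RNA interference machinery also holds genes outside the hairpin steps given above, such as DROSHA. It had 0 of 16 tested members called by limma (1 at an unadjusted p under 0.05), 5 separated higher (31.2%) and 2 lower (12.5%). XPO5, the exporter of hairpins, read 8.74 and 8.68 in set a and 8.77 and 8.80 in set b, against 8.45 and 8.47 in the vector arrays (0.29 ± 0.10, adjusted p = 0.548). DICER1, which cuts the hairpin, read 8.96 and 8.93 in set a and 9.08 and 9.13 in set b, against 8.84 and 8.75 in the vector arrays (adjusted p = 0.717). DROSHA, the nuclear nuclease that trims primary microRNAs, differed by 0.27 (adjusted p = 0.698). AGO2, the slicing Argonaute, was split by set, at 8.44 and 8.38 in set a and 9.06 and 9.08 in set b, against 8.97 and 9.12 in the vector arrays. The 4 scrambled arrays of XPO5, DICER1 and DROSHA were all above the vector arrays, by under 0.3 on average.

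Sensors of double-stranded RNA and their signalling had 0 of 16 called by limma (2 at an unadjusted p under 0.05), 4 separated higher (25.0%) and 1 lower (6.25%). The 4 were IKBKE, IRF3, TRIM25 and STING1, and STING1 belongs to DNA sensing, as does the list member CGAS. The 1 lower was OAS2. RIGI read 8.84 and 8.85 in set a and 9.45 and 9.46 in set b, against 9.33 and 9.34 in the vector arrays. IFIH1, which encodes MDA5, read 7.23 and 7.18 in set a and 8.02 and 7.95 in set b, against 7.80 and 8.17 in the vector arrays. EIF2AK2, which encodes PKR, read 9.96 and 9.97 in set a and 10.38 and 10.42 in set b, against 10.31 and 10.52 in the vector arrays. In each of the 3 sensors set a lay below the vector arrays and set b lay among or near them. The kinase IKBKE (0.64, adjusted p = 0.188) and the transcription factor IRF3 (0.48, 0.375), which act downstream, were separated higher without passing the test.

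Interferon response genes had more members separated lower than higher, with the larger steps in set a. By limma 0 of 38 tested members were called (8 at an unadjusted p under 0.05), and 14 (36.8%) were separated lower and 3 (7.89%) higher. Their median difference was -0.265, made up of -0.469 in set a and 0.003 in set b, and set a lay farther from the vector arrays than set b in 33 of the 38. With median centring 7 were separated lower, and with quantile normalization 17. RSAD2, viperin, an antiviral radical enzyme, read 7.49 and 7.48 in set a and 8.38 and 8.34 in set b, against 8.84 and 8.96 in the vector arrays. IFIT1, which binds viral RNA ends, read 8.78 and 8.66 in set a and 9.84 and 9.88 in set b, against 10.06 and 10.06 in the vector arrays. MX1, an antiviral GTPase, read 8.86 and 8.80 in set a and 10.06 and 10.04 in set b, against 10.05 and 10.05 in the vector arrays.

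The difference of RSAD2 was -0.98 ± 0.25 (adjusted p = 0.272) over both sets. With only the spread within pairs as error it was -1.41 in set a (adjusted p = 4.79e-06) and -0.54 in set b (0.0205), whereas MX1 was at -1.22 in set a (1.16e-05) and -0.00 in set b (0.988). IFI16, a DNA sensor, was among the 3 separated higher, by 0.34 (adjusted p = 0.586). In antigen presentation, 2 of 11 tested genes were separated, TAP2 (0.55, adjusted p = 0.279) and PSMB8 (0.14, 0.894), both higher.

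Basal and myoepithelial markers, which include the keratins and adhesion proteins of the outer mammary layer, had the largest share of separated higher members among the 24 lists, 11 of 19 (57.9%), with 2 lower (10.5%). By limma 0 were called, and 6 had an unadjusted p under 0.05. The median difference was 0.180, with 0.144 in set a and 0.176 in set b. After quantile normalization 8 were separated higher and 3 lower, and the share was no longer the largest, since 8 of 17 heat shock proteins were separated higher. KRT16 read 11.54 and 11.47 in set a and 10.65 and 10.63 in set b, against 10.36 and 10.38 in the vector arrays (0.71 ± 0.24, adjusted p = 0.51). KRT14, partner of KRT5 in basal cells, read 10.19 and 10.15 in set a and 9.50 and 9.36 in set b, against 9.24 and 9.26 in the vector arrays (0.55 ± 0.21, adjusted p = 0.592). In both keratins set a was far above set b, and set b was slightly above the vector arrays.

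KRT5 differed by 0.24 ± 0.12 (adjusted p = 0.717), the desmosomal cadherin DSG3 by 0.62 ± 0.22 (0.527) and the chaperone CRYAB by 0.61 ± 0.21 (0.51). SFN, the 14-3-3 sigma gene, and ACTA2, smooth muscle actin, were the 2 separated lower, with differences of -0.21 (adjusted p = 0.709) and -0.42 (0.707). In these bulk samples fewer cells of a type and less RNA per cell cannot be told apart.

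Luminal markers did not share that layout. Of 16 mature luminal markers tested, 2 were separated higher (12.5%) and 3 lower (18.8%), and of 15 luminal progenitor markers 2 were higher (13.3%) and 1 lower (6.67%), with 0 called by limma in either list (2 and 3 at an unadjusted p under 0.05). KIT, the stem cell factor receptor, read 6.26 and 6.37 in set a and 7.04 and 7.16 in set b, against 7.64 and 7.58 in the vector arrays (-0.90 ± 0.25, adjusted p = 0.349). GATA3, a luminal transcription factor, read 8.70 and 8.77 in set a and 8.60 and 8.54 in set b, against 8.44 and 8.46 in the vector arrays (0.20 ± 0.19, adjusted p = 0.884). The luminal keratins KRT8 (0.06, adjusted p = 0.97) and KRT18 (0.03, 0.987) were not separated.

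Of 24 epithelial junction genes tested, 4 were separated higher (16.7%) and 8 lower (33.3%), or 5 lower after median centring and 2 higher and 9 lower after quantile normalization. By limma 0 were called, and 5 had an unadjusted p under 0.05. Those higher were PKP1 (0.37, adjusted p = 0.755), DSP (0.21, 0.845), PKP3 (0.43, 0.612) and JUP (0.09, 0.965). The tight junction gene CLDN3 read 7.66 and 7.46 in set a and 8.66 and 8.60 in set b, against 9.20 and 9.21 in the vector arrays (-1.11 ± 0.28, adjusted p = 0.272). TJP1, the scaffold ZO-1, read 9.27 and 9.34 in set a and 9.97 and 9.93 in set b, against 10.11 and 10.13 in the vector arrays (-0.49 ± 0.19, adjusted p = 0.596). CLDN4 differed by -0.47 (adjusted p = 0.647) and the desmosomal gene PKP2 by -0.34 (0.581), and the others separated lower were CLDN7, TJP3, OVOL1 and RAB25. OVOL1 and RAB25 are on this list but do not encode junction proteins themselves. CDH1, E-cadherin, was not separated (0.06, adjusted p = 0.981).

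Hypoxia and glycolysis genes had members on both sides. Of 27 tested, 9 were separated lower (33.3%), with BNIP3 called, and 5 higher (18.5%). The median difference was 0.029, and -0.029 after quantile normalization, with the same counts on each side. Under low oxygen the factor HIF binds a short core motif upstream of many of these genes. The form GCGTG of this motif was not searched here, only the form ACGTG. The 250 bases before the start of each gene were searched for it on both strands in the RefSeq promoters of build GRCh38.p14, and 24 of the 27 members had an entry. The 6 separated members whose window held a match are shown with 30 bases around the match nearest the start, 5′ to 3′ in the direction of the gene, with the matching letters in capitals (CACGT is the motif on the other strand, and in BNIP3 matches on both strands overlap). BNIP3, P4HA1 and PGK1 were separated lower, and HK2, LDHA and ANGPTL4 higher.
BNIP3: cgcacgcgccgCACGTGccacacgcacccc
P4HA1: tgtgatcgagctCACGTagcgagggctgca
PGK1: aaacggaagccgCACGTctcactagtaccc
HK2: aatgggcgtgcgCACGTcactgatccggag
LDHA: cgtgggttcccgCACGTccgccggcccccc
ANGPTL4: ggaaagaagagtCACGTctcccacggttcg

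These stretches lie at chr10:131982039-131982068 on the minus strand for BNIP3, chr10:73096935-73096964 on the minus strand for P4HA1, chrX:78104053-78104082 on the plus strand for PGK1, chr2:74834067-74834096 on the plus strand for HK2, chr11:18394478-18394507 on the plus strand for LDHA and chr19:8363909-8363938 on the plus strand for ANGPTL4. A match was found in 3 of 8 windows of members separated lower (37.5%), 3 of 4 separated higher (75.0%) and 5 of 12 not separated (41.7%), beside 18.5% of all 35116 promoters. The letters thus occurred on both sides of the comparison, and a match describes the sequence only.

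P4HA1, a collagen prolyl hydroxylase, read 8.58 and 8.48 in set a and 8.75 and 8.70 in set b, against 9.24 and 9.40 in the vector arrays (-0.69 ± 0.17, adjusted p = 0.258). NDRG1, a stress-induced growth regulator, read 9.40 and 9.24 in set a and 9.61 and 9.63 in set b, against 10.21 and 10.28 in the vector arrays (-0.78 ± 0.19, adjusted p = 0.262). PDK1, a kinase that inhibits pyruvate dehydrogenase, read 7.70 and 7.58 in set a and 7.75 and 7.77 in set b, against 8.13 and 8.32 in the vector arrays (-0.52 ± 0.12, adjusted p = 0.226). In these 3 genes, as in BNIP3, both sets lay clear of the vector arrays. Genes of glycolysis lay on both sides. HK2, hexokinase 2, differed by 0.24 (adjusted p = 0.716), LDHA by 0.18 (0.807) and ENO1 by 0.08 (0.914), whereas PFKFB3 differed by -0.53 (0.685), the phosphofructokinase PFKP by -0.39 (0.655) and PGK1 by -0.17 (0.767). The glucose transporter SLC2A1 was not separated (-0.02, 0.994).

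Matrix proteases and their inhibitors had MMP7 called among 23 tested, with 6 separated higher (26.1%) and 3 lower (13.0%). KLK6 (0.39, adjusted p = 0.562) and TIMP3 (0.51, 0.55) were separated higher, and the urokinase receptor gene PLAUR (-0.38, 0.725) lower by the narrow gap of 0.003. Cytokines and NF-kB targets had 5 of 25 separated higher (20.0%), 0 lower and 0 called by limma (3 at an unadjusted p under 0.05), with medians of -0.560 in set a and 0.226 in set b. SAA2, an acute phase protein, read 6.97 and 6.92 in set a and 8.42 and 8.36 in set b, against 6.17 and 6.42 in the vector arrays (1.37 ± 0.38, adjusted p = 0.337). S100A8, a calcium-binding alarmin, read 8.99 and 8.92 in set a and 8.78 and 8.76 in set b, against 7.97 and 8.08 in the vector arrays (0.84 ± 0.17, adjusted p = 0.144).

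Heat shock proteins had 8 of 17 separated higher (47.1%) and 2 lower (11.8%), or 5 higher and 1 lower after median centring, with 0 called by limma (1 at an unadjusted p under 0.05) and a median difference of 0.146. HSPH1 differed by 0.41 ± 0.15 (adjusted p = 0.542), HSPB1 by 0.22 (0.716) and HSP90AA1 by 0.16 (0.814), while the small chaperone HSPB8 differed by -0.53 (0.716). PRC2 subunits had 4 of 12 separated higher (33.3%) and 0 lower, but 1 and 2 higher after quantile normalization and median centring. MTF2, a PRC2 partner, differed by 0.35 (adjusted p = 0.542), and EED was not separated (0.20, 0.864). HOX genes had 3 of 12 separated higher (25.0%), led by HOXB6 at 6.60 and 6.57 in set a and 5.70 and 5.90 in set b, against 5.35 and 5.38 in the vector arrays (adjusted p = 0.337).

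Immediate early and MAP kinase feedback genes had 2 of 28 separated higher (7.14%) and 4 lower (14.3%), with a median of -0.436 in set a and 0.114 in set b. JUN read 8.17 and 8.24 in set a and 9.41 and 9.37 in set b, against 9.55 and 9.57 in the vector arrays (adjusted p = 0.612). MYC was placed the same way, at 9.31 and 9.26 in set a and 10.11 and 10.12 in set b, against 10.16 and 10.22 in the vector arrays. Cholesterol and fatty acid synthesis genes had 1 of 26 separated higher (3.85%) and 5 lower (19.2%), with SCD, the stearoyl desaturase, at -1.06 in set a and -0.15 in set b. In both lists the step of set a stood for most of the difference.

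Cell cycle genes had 8 of 44 separated higher (18.2%) and 6 lower (13.6%), with CDC6 at 0.31 (adjusted p = 0.516) and AURKA at -0.39 (0.581). Targets of p53 had 6 of 23 higher (26.1%) and 3 lower (13.0%), and among the 3 was TP53INP1 at 6.61 and 6.52 in set a and 7.21 and 7.37 in set b, against 7.86 and 7.81 in the vector arrays (adjusted p = 0.262). The unfolded protein response had 2 of 29 higher and 4 lower, or 0 higher and 8 lower after quantile normalization. NRF2 targets had 1 of 22 higher and 3 lower, or 1 higher and 6 lower after quantile normalization. Mesenchymal markers had 3 of 17 higher and 1 lower, PRC1 subunits 3 of 16 higher and 0 lower, and metallothioneins and zinc transport genes 0 of 10 on either side. None of the members of these lists was called.

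**Figure D4:**
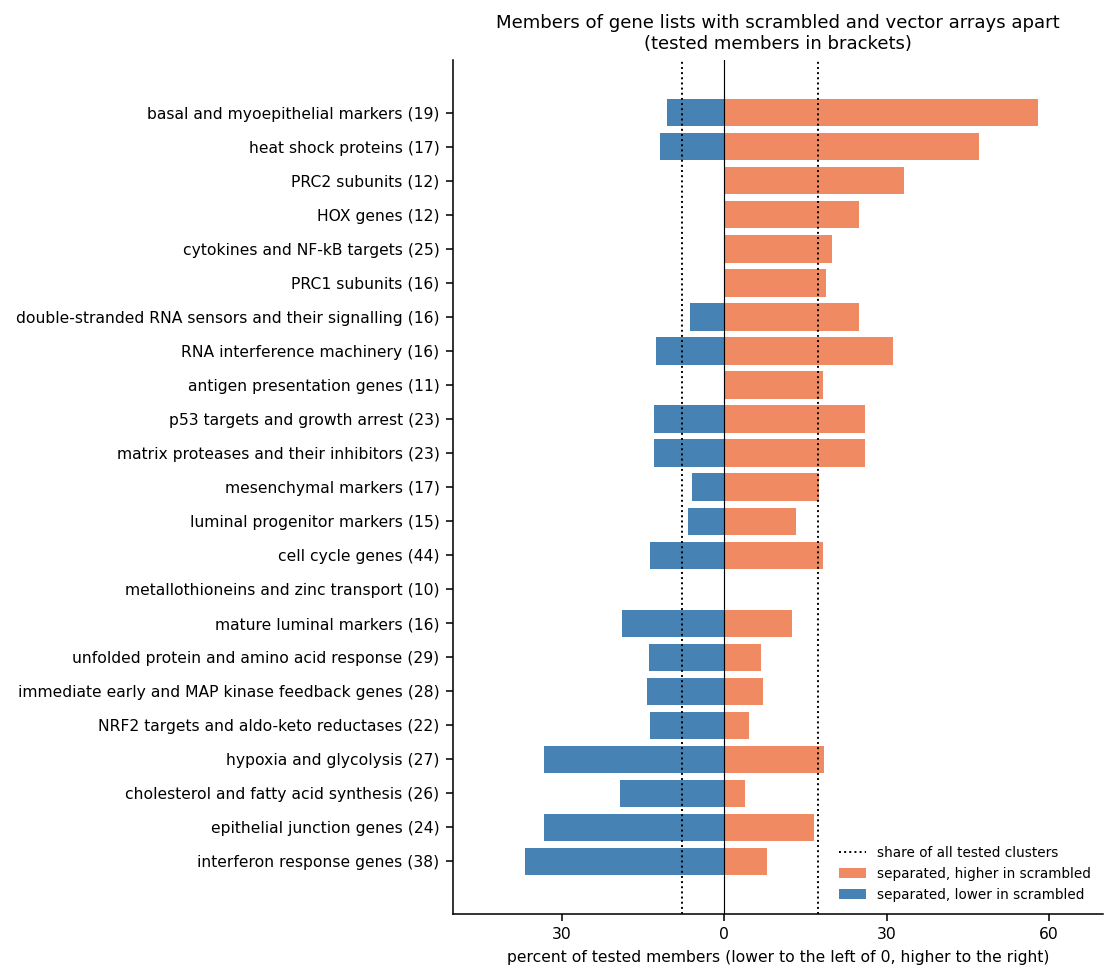
Percent of tested members separated higher (right of 0) and separated lower (left of 0) in scrambled arrays (horizontal axis) for each list with at least 10 tested members (vertical axis), with dotted lines at the shares of all tested clusters, 17.3% and 7.80%. Basal and myoepithelial markers reach 57.9% on the higher side, and interferon response genes reach 36.8% on the lower side.

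**Figure D5:**
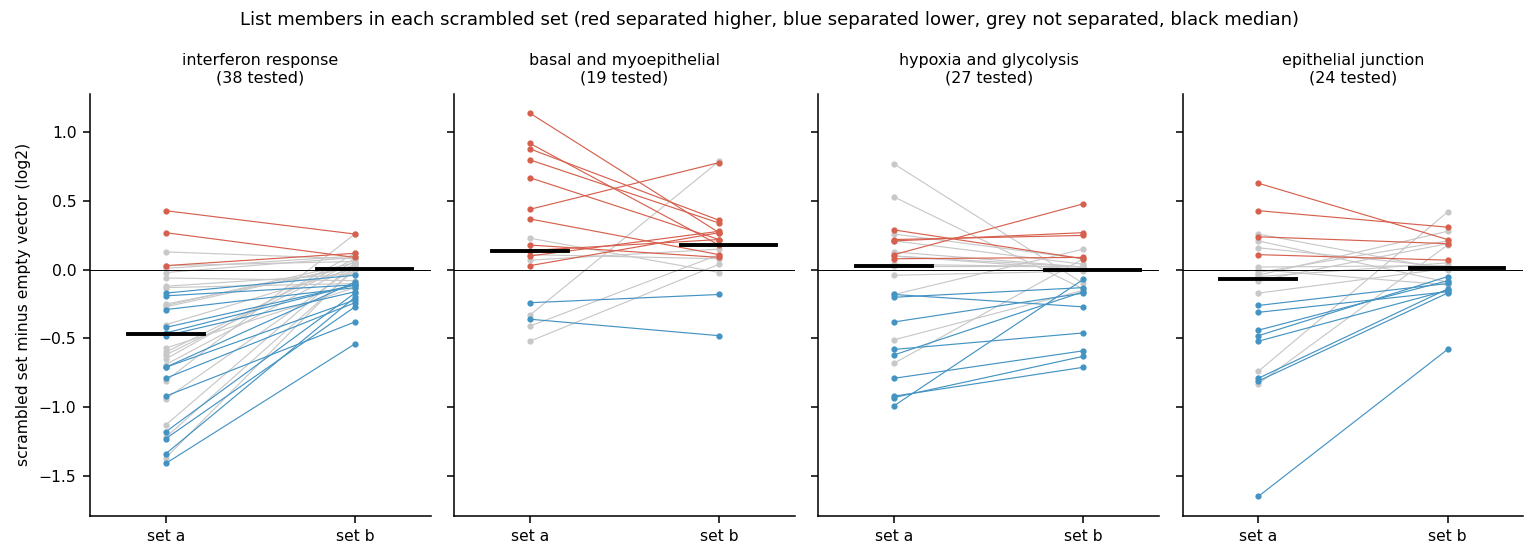
Differences from the vector arrays (vertical axis, log2) of single genes in set a and set b (horizontal axis), joined by lines, for 4 lists, with black bars at the medians. The median of interferon response genes is -0.469 in set a and 0.003 in set b, and that of basal and myoepithelial markers is 0.144 in set a and 0.176 in set b.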

How the data were processed

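Signals of 16 Affymetrix Human Gene arrays, each from 200 ng of total RNA, were deposited on a log2 scale with a value for every transcript cluster. The authors made them with RMA in Affymetrix Expression Console, per the submitters' processing notes. RMA corrects background, normalizes between arrays and summarises probes, so changes of dim clusters are understated. Tool versions and the build used for cluster definitions were not stated in the labels. Arrays give no read depth, and their number limits the precision.

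The test took 16175 clusters, those at log2 6 or above on 2 or more of the 16 arrays, and 17122 were not tested. Group means of 7 groups (the 4 HCC70 scrambled arrays as 1) were fitted to all 16 arrays with limma 3.58.1 in R 4.3.3 (lmFit, duplicateCorrelation, eBayes), with each pair of arrays as a random block (consensus correlation 0.404). Tests were two-sided, adjusted by Benjamini-Hochberg over all tested clusters and called under 0.05. The script was tested on simulated data, where this correlation was estimated too low with few sets per group. A pooled estimate of 0.677 was therefore added as an alternative after seeing the data, and fits without 1 array keep the first correlation. Differences of a single set come from 8 group means without a block.

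Only clusters with 1 symbol in the platform annotation were named (19460 clusters, with 1754 holding several symbols and 12083 none). Named were called and separated clusters, called list members, a fixed panel and the clusters nearest the threshold, together with genes of widest gap and separated list members that were added after the values were seen. The members and lists were chosen with earlier results of these data known. Promoter sequences came from RefSeq (GRCh38.p14). Alternatives were the floor, the scaling, the arrays in the fit, the block and leaving out each array. Scan dates were not used here, so batches were not tested.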

Additional observations from a re-analysis of the deposited data

Results flagged for a closer look

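In 3 genes 1 of the 4 scrambled arrays lay apart from the others when measured against the range of the 4. That range was narrow, with an SD of 0.05 in KRT8, 0.04 in JUP and 0.01 in HSP90AA1. KRT8 read 12.27 in set b replicate 2, and the gap to the nearest scrambled array was 0.87 of the range of the 4. JUP read 10.25 in set a replicate 1, with a gap of 0.93 of the range, and HSP90AA1 read 12.37 in set b replicate 1, with a gap of 0.87 of the range. Chance marks about 1 in 20 groups of 4 independent values in this way, but these 4 arrays form 2 sets, so that rate may not hold here.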

How the results depend on the processing

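The count of 11 called clusters (7 higher, 4 lower) moved under most alternatives. It was 1760 with 8 group means and no block (1366 of them separated) and 214 with the 4 scrambled arrays as 1 group and no block. It was 4022 with set a only and 307 with set b only. It was 2 with 12 HCC70 arrays and 0 with 6 arrays in the fit, 7 with a floor of log2 7 and 74 with none, 7 after median centring and 6 after quantile normalization. The pooled correlation, chosen after seeing the data, gave 0 (361 at an unadjusted p under 0.05 in limma). Without 1 array it ran from 1 to 9. With 1-symbol clusters only it was 12. The 4059 separated clusters became 10188 with set a only, 8124 with set b only and 6355 without a floor, and 4497 to 8285 without 1 array, the highest counts being 8237 without vector replicate 1 and 8285 without vector replicate 2. The 272 calls between knockdown and EZH2 cDNA arrays became 3255 with 8 group means, 151 with 12 HCC70 arrays, 774 without a floor and 29 with the pooled correlation, and 65 to 287 without 1 array. No called value changed sign under these alternatives. Replicate numbers did not pair the samples (deviations of same-numbered arrays correlated at -0.2505 to 0.2756), and with the replicate number as a block 7 clusters were called. Apart from the fewer arrays or the smaller error built into an alternative, the cause was not tested. Differences among dim clusters are limited by the floor.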

Other observations

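Zinc finger genes named ZNF, most of which encode DNA-binding KRAB repressors where they are clustered on chromosome 19, had more members separated lower than higher in the scrambled arrays. This grouping was chosen after the values were seen and is a description with no test. Of 153 tested ZNF genes on chromosome 19, 47 were separated lower (30.7%) and 6 higher (3.92%), and the median difference was -0.188, with -0.326 in set a and -0.112 in set b. Of 153 tested ZNF genes elsewhere, 11 were separated lower (7.19%) and 26 higher (17.0%), with a median of -0.018. After quantile normalization 49 and 13 were separated lower, and after median centring 41 and 7. By limma 0 were called in either group, with 30 and 7 at an unadjusted p under 0.05.

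ZNF626 read 5.63 and 5.96 in set a and 6.39 and 5.63 in set b, against 6.95 and 7.25 in the vector arrays (adjusted p = 0.201). ZNF506 read 5.52 and 5.16 in set a and 5.96 and 6.04 in set b, against 6.61 and 6.93 in the vector arrays (adjusted p = 0.291). ZNF304 read 5.83 and 5.97 in set a and 5.97 and 6.12 in set b, against 6.75 and 6.77 in the vector arrays (adjusted p = 0.104). The vector arrays were the higher in each of the 3. Between knockdown and EZH2 cDNA arrays the median of the genes on chromosome 19 was 0.011. Many of these genes are related in sequence, so probes may share signal, but neither shared signal nor its part in the result was tested.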
